A study of Homo sapiens with 12 samples.

Results

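The kallikrein locus on chromosome 19 carries KLK3, KLK2 and KLK4, and 17 regions bound in chromatin immunoprecipitation followed by sequencing (ChIP-seq) were found there, of 178794 in the whole series. They were chosen by position alone: every peak whose centre lay in chr19:51340000-51430000 (hg19) was taken, and peaks sharing at least 1 base were merged. In this way 87 of 760537 peaks were joined into the 17 regions, numbered here from the lowest coordinate to the highest. All 12 libraries came from LNCaP, a human prostate cancer line that responds to androgen, and the series title concerns the stability of the FOXA1 protein.

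Endogenous FOXA1 was precipitated after 7 days with EPZ-6438 at 1 µM (tazemetostat, which inhibits the histone methyltransferase EZH2), with P5091 at 3 µM (which inhibits the deubiquitinase USP7), with the combination of both at those doses, or with DMSO, their solvent, in 2 libraries each. In 4 further libraries, 1 per condition, the HA tag was precipitated 5 days after infection. These were the hairpin shFoxA1 with FOXA1 carrying the K295A substitution, shFoxA1 with wild-type (WT) FOXA1, shFoxA1 alone and the control vector pGIPZ. Per the treatment protocol the K295A and WT proteins carried HA, whereas shFoxA1 alone and pGIPZ gave the antibody's background. The promoter that drives the tagged proteins is not given in the sources used here, and protein levels were not analysed here.

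FOXA1 is a forkhead transcription factor that binds closed chromatin in luminal prostate cells and opens it for the androgen receptor. KLK3 encodes prostate-specific antigen, the serum marker of prostate disease. KLK2 encodes a trypsin-like protease that activates the KLK3 product, and KLK4 encodes a further kallikrein-related serine protease. All are secreted enzymes of luminal prostate cells whose transcription depends on androgen. In the RefSeq annotation of GRCh38.p14 the order along the chromosome is LOC105372441 (a long non-coding RNA), KLK3, KLK2, the pseudogene KLKP1 and KLK4. That annotation is of another build than the peaks, so whether a region lies in a promoter, an exon, an intron or between genes was not analysed here.

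The promoter windows of the 3 genes are printed because androgen receptor and forkhead words can be looked for in them. They run from 250 bases before to 50 after the RefSeq gene start, and are not sequences of the bound regions. Capitals mark the stretch closest to the 15-letter androgen response word (AGAACA, any 3 bases, TGTTCT; it reads the same on both strands), where there is a single closest one.
KLK3, GRCh38.p14, plus strand, chr19:50854665-50854964: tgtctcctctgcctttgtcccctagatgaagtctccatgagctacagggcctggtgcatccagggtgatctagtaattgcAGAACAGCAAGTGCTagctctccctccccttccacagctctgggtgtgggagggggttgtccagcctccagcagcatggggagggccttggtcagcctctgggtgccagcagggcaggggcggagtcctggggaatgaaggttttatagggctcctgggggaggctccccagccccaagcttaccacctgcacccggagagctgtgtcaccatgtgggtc
KLK2, GRCh38.p14, plus strand, chr19:50873189-50873488: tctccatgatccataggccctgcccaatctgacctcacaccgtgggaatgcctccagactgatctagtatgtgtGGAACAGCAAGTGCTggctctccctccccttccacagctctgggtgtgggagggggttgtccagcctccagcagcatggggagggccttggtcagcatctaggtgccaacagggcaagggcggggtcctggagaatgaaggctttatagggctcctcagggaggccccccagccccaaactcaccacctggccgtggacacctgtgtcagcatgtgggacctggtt
KLK4, GRCh38.p14, minus strand, chr19:50911346-50911645: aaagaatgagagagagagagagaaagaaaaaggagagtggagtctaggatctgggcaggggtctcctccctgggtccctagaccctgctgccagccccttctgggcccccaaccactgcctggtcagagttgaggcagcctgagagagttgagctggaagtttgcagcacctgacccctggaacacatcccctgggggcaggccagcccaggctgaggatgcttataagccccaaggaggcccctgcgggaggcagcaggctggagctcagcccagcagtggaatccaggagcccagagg

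The KLK3 stretch, bases 81 to 95 of its window, departed from that word at 2 of its 12 fixed letters, and the KLK2 stretch, bases 75 to 89, at 3. The closest stretches in the KLK4 window departed at 5 letters, and in a further KLK4 window (chr19:50910689-50910988) at 6. A match with at most 2 departures occurred in 1.41% of 35116 RefSeq windows of this length. The KLK3 window also held the shorter androgen receptor word TGTTCT on its minus strand, inside the same stretch, a word found in 14.8% of the windows on either strand. The forkhead words TGTTTAC and TGTTTGC were not in any of the 4 windows, on either strand, and occurred in 3.42% and 3.89% of all windows. Aligned over 309 columns, the KLK3 and KLK2 windows were identical at 79.3%, against 46.6% to 49.4% for either of them with a KLK4 window.

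The libraries held 11640056 to 13694090 tags for HA and 12299238 to 22589685 for FOXA1. Replicate 1 of the combination stood apart before any result: it gave 30811 peaks holding 5.26% of its tags, against 68504 to 84423 peaks and 18.9% to 21.2% in the other FOXA1 libraries. Estimated fragment lengths were 274 to 278 bases in every replicate 1 and 216 to 230 in every replicate 2. The values below are the authors' normalized tag counts, the tags in a peak scaled to a library of 1e7 tags. Peak width was set per library, so the counts do not cover equal intervals. In replicate 1 it was 363 bases with EPZ-6438, 356 with P5091, 279 with the combination and 365 with DMSO. In replicate 2 it was 274 to 296, and with K295A and WT 299 and 304. How far width moved the values was not tested. A library without a peak in a region has no value there, not 0. It then lacked a peak that met the caller's limits on tags, surroundings and, for FOXA1, input, or that lay far enough from another peak. The limit on tags alone ran from 6.20 to 9.45 on this scale. A tag count does not separate the share of cells bound from occupancy per cell.

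FOXA1 was found in 15 of the 17 regions, and 4 of them (regions 1, 3, 9 and 11) held a peak in all 8 FOXA1 libraries. Region 1 (chr19:51345319-51345808), the lowest in coordinate, was the strongest of the locus in each FOXA1 library and in both tagged libraries. Region 3 (chr19:51354003-51354436) lay 8620 bases above it, region 9 (chr19:51372708-51373198) a further 18776 bases on, and region 11 (chr19:51392803-51393249) 47470 bases from region 1. These distances are between the median peak centres. Of the others, 11 held a peak in 1 to 7 FOXA1 libraries, and regions 5 and 14 only in an HA library.

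**Figure D1:**
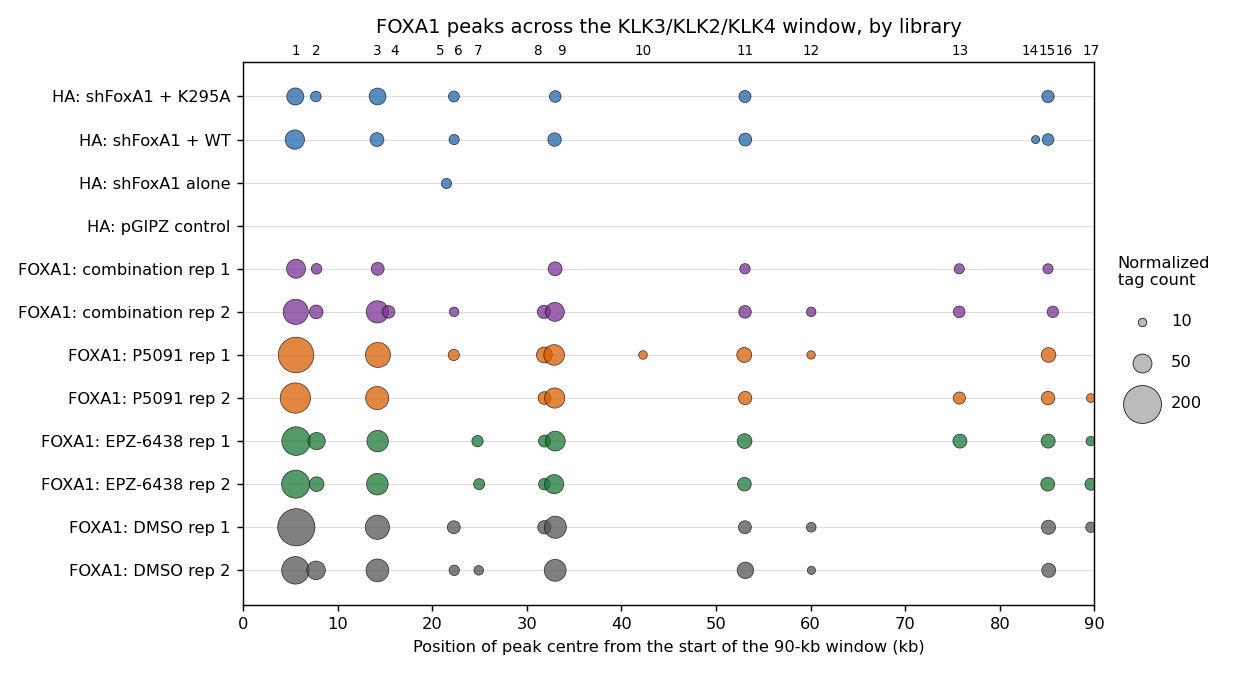
Peaks of the 12 libraries (a row each) by the distance of their centre from the lower edge of the 90 kb window, in kb on the horizontal axis; circle area grows with normalized tag count, and region numbers stand on top. Regions 1, 3, 9 and 11 carry a circle in all 8 FOXA1 libraries and with both tagged proteins, the largest circle is region 1 with DMSO replicate 1 (193.1), and the pGIPZ row is empty.

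Region 1 had 114.2 and 109.8 normalized tags with EPZ-6438, 175.5 and 127.7 with P5091, 50 and 88.4 with the combination, and 193.1 and 105.7 with DMSO. The DMSO libraries thus lay far apart, and only the combination lay below both of them. Averaged over DMSO, region 1 held 149.4 ± 61.8 normalized tags (SD, n = 2), which ranked 543 among the 57349 regions called in both DMSO libraries, at their percentile 99.1. Within each FOXA1 library's own peak list, of 30811 to 84423 peaks, it stood between percentiles 98.0 and 99.6; lists of such different lengths cannot be compared by percentile.

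Region 3 had 64.2 and 65.0 normalized tags with EPZ-6438, 86.8 and 74.4 with P5091, 23.1 and 68.7 with the combination, and 81.9 and 72.0 with DMSO. Both EPZ-6438 and both combination libraries lay below the DMSO pair, and P5091 overlapped it. Region 9 had 54.9 and 51.2 normalized tags with EPZ-6438, 59.4 and 56.9 with P5091, 26.9 and 49.7 with the combination, and 68.0 and 66.8 with DMSO. All 6 treated libraries lay below both DMSO libraries, which were close to each other at this region; 5.38% of the 24261 regions called in all 8 libraries showed the same. With each library centred on its median over those regions this no longer held at region 9, where replicate 1 of the combination then lay above DMSO replicate 1, and 3.76% of regions showed it. Region 11 had 30.5 and 26.0 normalized tags with EPZ-6438, 31.3 and 24.8 with P5091, 15 and 22.1 with the combination, and 23.4 and 37.7 with DMSO. Only the combination lay below both DMSO values there. In mean DMSO tag count, region 3 (76.95 ± 7.00) stood at percentile 93.7 of the 57349 regions, region 9 (67.4 ± 0.85) at 91.6 and region 11 (30.6 ± 10.1) at 68.1 (SD, n = 2 each).

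The order from region 1 through regions 3 and 9 to region 11 was the same in 7 of the 8 FOXA1 libraries, and in replicate 1 of the combination regions 9 and 3 changed places. Region 1 took 37.5% to 52.7% of the tags summed over these 4 regions and exceeded the next strongest by 1.29 to 2.36 times. Neighbours in the order were less clearly apart between libraries: without replicate 1 of the combination, region 3 spanned 64.2 to 86.8 normalized tags and region 9 spanned 49.7 to 68.0, so the ranges overlapped. The peak centres of the different FOXA1 libraries fell within 99 bases of each other at region 1, 81 at region 3, 131 at region 9 and 124 at region 11.

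**Figure D2:**
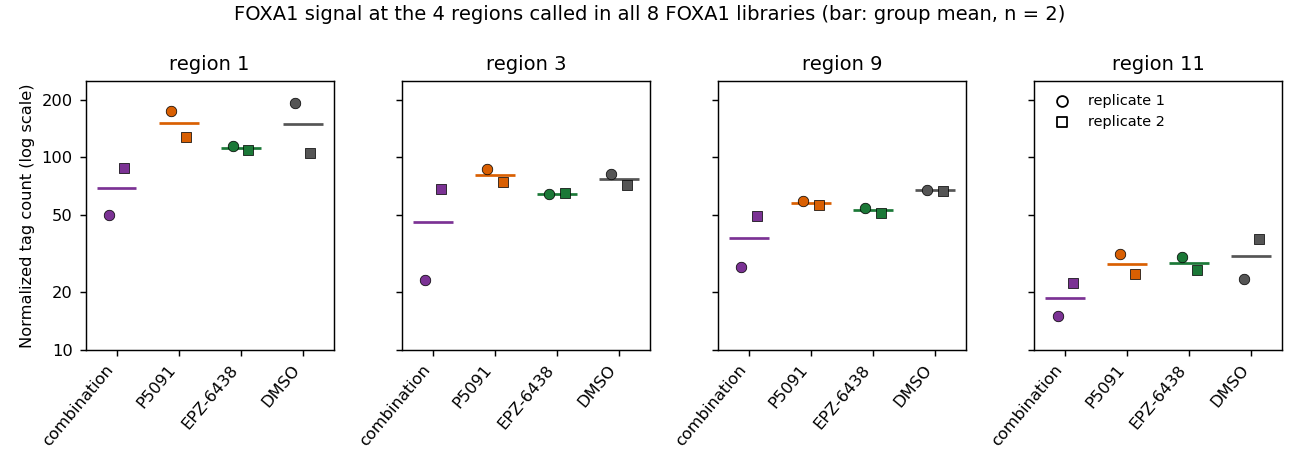
Normalized tag counts of regions 1, 3, 9 and 11 in the 8 FOXA1 libraries (vertical log axis), by treatment on the horizontal axis, with a circle for replicate 1, a square for replicate 2 and a bar at the mean of 2. As deposited, all treated points at region 9 lie below both DMSO points, which centring the libraries ends, whereas at region 1 the DMSO points, 193.1 and 105.7, enclose those of EPZ-6438 and P5091.

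The other FOXA1 regions were called in fewer libraries. Region 15 (chr19:51424915-51425329) was called in 7 of the 8, with 27.4 and 26.8 normalized tags under EPZ-6438, 30 and 25.4 under P5091, 14.4 and no peak under the combination, and 27.8 and 27.3 under DMSO. It was missing only from replicate 2 of the combination. That library instead had a peak of 18.2 in region 16, 494 bases from the centre of region 15 and closer to it than the 548 bases the caller required between peaks of that library. Regions 4, 10 and 16 were each called in 1 FOXA1 library, with 22.1, 10.4 and 18.2 normalized tags. Region 8 was called in 6 FOXA1 libraries at 18.7 to 35.2 normalized tags, region 17 in 4 at 10.9 to 20.3, and region 7 in 3 at 12.8 to 17.7.

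Region 2 (chr19:51347544-51347960), 2184 bases from region 1, had 41.6 and 30.1 normalized tags with EPZ-6438, 15.6 and 26.0 with the combination and 48.2 in replicate 2 of DMSO. It had no peak in replicate 1 of DMSO or in either P5091 library, although 48.2 was above every value of region 11. Region 2 sits inside the local window of region 1, and the caller asked for at least 4-fold more tags than in the 10 kb around a peak. The deposited fold over that surrounding, the caller's own value, was 4.52 to 6.74 at region 2, close to the limit, against 20.2 to 33.1 at region 1. It was also near the limit at region 6 (4.51 to 6.21), region 7 (4.51 to 5.76), region 8 (4.15 to 7.34) and region 17 (4.15 to 8.05). The only peak of region 10 had the lowest local fold of the FOXA1 peaks, 4.13. That of region 4 had 5.68, and region 12 had 5.42 to 10.97. Over all FOXA1 peaks of the locus the local fold had a median of 20.4 in the 32 peaks of the common regions and 5.98 in the 40 others. The common regions had to meet the limit in every FOXA1 library, so these groups were not formed independently of local fold. How far absent calls at the other regions follow from that limit was not tested.

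The window was dense in FOXA1 regions. The numbered chromosomes and X were cut into 33736 consecutive tiles of 90 kb, and gaps of the assembly were not left out. Of these tiles, 1.36% held 7 or more regions called in both DMSO libraries, as the window did. The median tile held 1. Tiles with 4 or more regions called in all 8 libraries made up 1.70%. The adjoining 90 kb below the window held 9 regions with any FOXA1 peak, 2 of them called in both DMSO libraries and 0 in all 8, and the highest mean DMSO value there was 20.6. The adjoining 90 kb above the window held 0 regions. The nearest region outside, chr19:51338701-51339151, lay 1074 bases below the lower edge; it had 14.6 and 10.6 normalized tags with EPZ-6438, 12.1 in replicate 2 of P5091 and 16.1 and 8.71 with DMSO. It had no peak in replicate 1 of P5091 or in either combination library. Above the upper edge the next region was 94480 bases away.

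Tagged FOXA1 was found at the same strong regions, with K295A and with WT alike, and the untagged libraries were almost empty. The K295A library held a peak in 7 regions of the locus and the WT library in 7, with 6 regions in common (1, 3, 6, 9, 11 and 15). Region 2 was called with K295A alone, at 15.8 normalized tags, and region 14 (chr19:51423628-51423932) with WT alone, at 9.16. shFoxA1 alone gave 1 peak, region 5 (chr19:51361381-51361613), at 14.6, which no other library had, and pGIPZ gave 0. All 4 of the regions called in every FOXA1 library were called with K295A and with WT; genome-wide the shares were 90.8% and 91.4% of 24261 regions. Of the 7 called in both DMSO libraries, 6 were called with K295A and 6 with WT, against 71.2% and 74.2% of 57349. Region 12 was the one of these not called with either. Region 8, called in 6 FOXA1 libraries at 18.7 to 35.2 normalized tags but in only 1 DMSO library, was called with neither protein. The same held for regions 4, 7, 10, 13, 16 and 17. None of the 7 called in both DMSO libraries was called in an untagged library. Genome-wide the shares were 0.0453% with shFoxA1 alone and 0.0366% with pGIPZ, and for regions called in all 8 libraries 0.0206% and 0.033%.

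Region 1 had 40.7 normalized tags with K295A and 51.9 with WT, a ratio of 0.784 (95% interval 0.538 to 1.14, from 54 and 68 tags). Region 3 had 39.2 with K295A and 26.7 with WT, a ratio of 1.47 (0.937 to 2.32, from 52 and 35 tags). Region 3 therefore came close to region 1 in the K295A library, where region 1 was 1.04 times as high, against 1.94 times in the WT library. Region 9 had 18.8 with K295A and 25.2 with WT, a ratio of 0.746 (0.426 to 1.30). Region 11 had 20.3 with K295A and 22.9 with WT, a ratio of 0.887 (0.508 to 1.55). The weaker regions 15 and 6 gave ratios of 1.11 (0.621 to 1.98) and 1.15 (0.590 to 2.23). All 6 intervals included 1, so no difference was detectable at this depth, and they are exact intervals that cover counting error only.

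**Figure D3:**
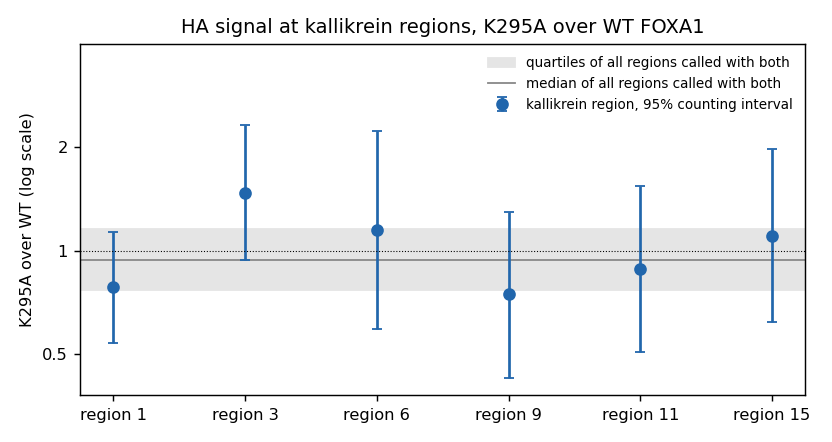
Ratio of the K295A to the WT normalized tag count (vertical log axis) at the 6 regions called with both tagged proteins, as points with 95% counting intervals from 1 library each; the grey line and band are the median and quartiles of all 68151 regions called with both. All intervals cross 1, and the points run from 0.746 at region 9 to 1.47 at region 3.

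The median ratio of K295A over WT was 0.990 over the 6 regions and 0.940 over all 68151 regions called with both proteins. None of the 6 differed by 2-fold, and genome-wide 0.927% were at least 2-fold higher and 2.29% at least 2-fold lower with K295A. There is 1 library per condition, so these values have no replicate check and no test was run. Among its own peaks region 1 stood at percentile 90.6 in the K295A library and 95.04 in the WT library, in lists of 81607 and 97120 peaks. The HA libraries differ from the FOXA1 ones in antibody, cells and day, which cannot be told apart here.

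For the compounds, the 4 common regions were read from a fit across all 24261 regions called in all 8 FOXA1 libraries, the ones with a value in every library. By limma with Benjamini-Hochberg adjustment, none of the 4 passed an adjusted p of 0.05 under any treatment, and neither did any other region: 0.0% of the 24261 were called with EPZ-6438, with P5091, with the combination, in all libraries with EPZ-6438 or in all libraries with P5091. At an unadjusted p under 0.05 limma gave 0.960%, 0.0495%, 14.1%, 8.89% and 0.837% of regions in that order, and 0 of the 4 kallikrein regions in each. edgeR called 0 regions for each treatment against DMSO (1713, 204 and 2537 at an unadjusted p under 0.05 for EPZ-6438, P5091 and the combination), 36 (0.148%) for all libraries with EPZ-6438 and 0 for all with P5091. edgeR scaled the libraries to each other first (TMM, trimmed mean of M-values), which that limma fit did not. These fits have no term for the replicate number. With it as a block, edgeR called 1.62% of regions for EPZ-6438, 3.22% for the combination, 7.9% for all libraries with EPZ-6438 and 0.0% for P5091 and for all with P5091. limma with the block and centred libraries called 0.688%, 4.22% and 7.56% for the first 3 of these and 0.0% for the others. None of the 4 kallikrein regions was among those calls. Differences are on the scale of log2 (tag count + 1), with 2 libraries per group. Separate cultures are not stated for the replicates, so each p reflects the spread between these libraries alone, which may be technical.

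With EPZ-6438, the log2 difference from DMSO was -0.35 ± 0.57 at region 1 (SE; 95% interval -1.47 to 0.77), -0.25 ± 0.59 at region 3 and -0.34 ± 0.59 at region 9. At region 11 it was -0.08 ± 0.59 (-1.22 to 1.07). The adjusted p was 1 at each by limma with Benjamini-Hochberg adjustment. The EPZ-6438 pair lay below both DMSO libraries at regions 3 and 9, and 22.2% of all tested regions did so too. Set against the DMSO library of the same number, region 9 gave ratios of 0.807 and 0.766 and region 3 gave 0.784 and 0.903, while region 1 gave 0.591 and 1.04 and region 11 gave 1.30 and 0.690. The median over the 4 regions was -0.29, and over all tested regions -0.08.

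With P5091, the values of regions 1 and 3 overlapped those with DMSO. The log2 difference was 0.07 ± 0.57 at region 1 (-1.06 to 1.19), 0.07 ± 0.59 at region 3, -0.21 ± 0.59 at region 9 and -0.09 ± 0.59 at region 11. The adjusted p was 1 at each by limma. Only region 9 had both P5091 libraries below both DMSO ones, which 11.2% of tested regions also showed. The median over the 4 regions was -0.01, against -0.02 over all. The intervals of this fit reach past a 2-fold change in both directions at regions 1, 3 and 11. Its spread is shared by all FOXA1 libraries, replicate 1 of the combination included. Fitted with the P5091 and DMSO libraries alone, the intervals stayed within 2-fold. They were then -0.57 to 0.71 at region 1, -0.56 to 0.685 at region 3 and -0.91 to 0.73 at region 11. A smaller change cannot be told from none, so neither fit shows that P5091 left these regions as they were.

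Replicate 1 of the combination had the lowest tag count of the 8 FOXA1 libraries at each of the 4 regions, while replicate 2, with 68.7 normalized tags at region 3, lay above both EPZ-6438 libraries there. The log2 difference from DMSO was -1.09 ± 0.57 at region 1 (-2.21 to 0.03; adjusted p = 0.354, limma), -0.93 ± 0.59 at region 3 (adjusted p = 0.38, limma), -0.86 ± 0.59 at region 9 (adjusted p = 0.4, limma) and -0.68 ± 0.59 at region 11 (adjusted p = 0.472, limma). The combination pair lay below both DMSO libraries at all 4 regions, and so did 42.5% of all tested regions. The median over the 4 was -0.89, against -0.69 over all. Replicate 1, the library with few tags in peaks, had a median of 15 normalized tags over the tested regions, against 36.3 in replicate 2 and 35.0 to 40.2 in the other FOXA1 libraries. Its ratios to DMSO replicate 1 were 0.259 at region 1, 0.282 at region 3, 0.396 at region 9 and 0.641 at region 11. Replicate 2 gave 0.836, 0.954, 0.744 and 0.586 against DMSO replicate 2.

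Without replicate 1 of the combination the differences became -0.69 at region 1, -0.16 at region 3, -0.43 at region 9 and -0.41 at region 11, and the adjusted p was 0.672 to 0.939 (limma). Without replicate 2, which leaves replicate 1 as the sole combination library, regions 1, 3 and 9 passed, with differences of -1.50, -1.69 and -1.29 (limma), as did 66.0% of the 24502 regions then tested. In that fit the spread of the other groups stands in for that of the single combination library. With each library centred on its median over the tested regions, the median of the 4 regions was -0.22, and of the 4 only region 3 still had both combination libraries below both DMSO ones, as 22.1% of all regions did. Centred, region 1 stood 1.67 and 1.26 log2 units above the library median with the combination and 2.24 and 1.53 above it with DMSO.

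**Figure D4:**
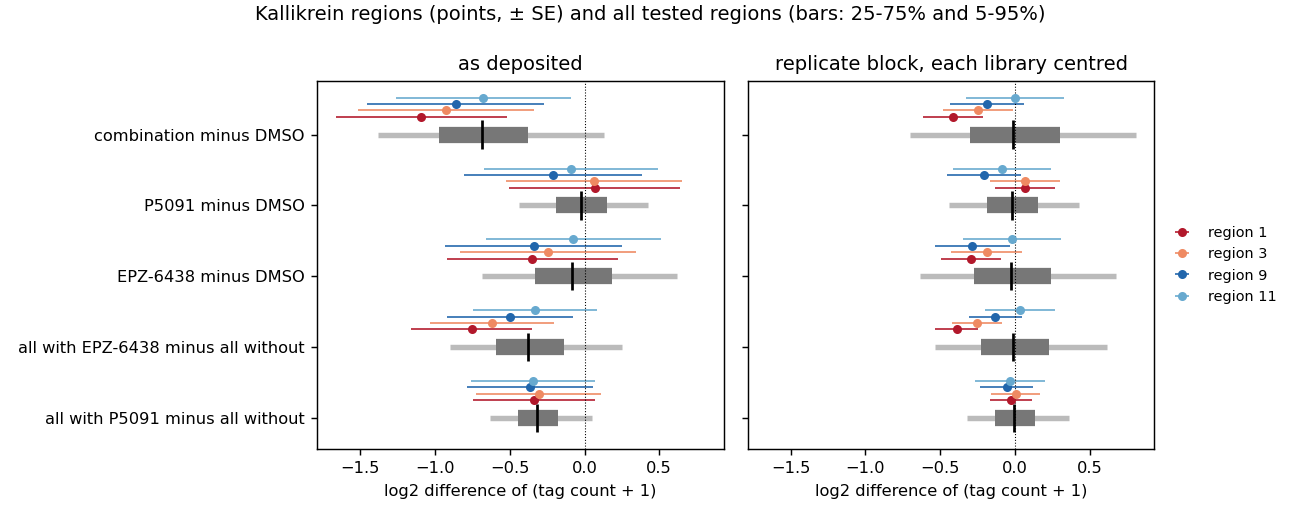
Log2 differences of tag count + 1 (horizontal axis) of regions 1, 3, 9 and 11 as points with ± 1 SE, above bars for all 24261 tested regions (black line, median; dark, 25 to 75%; light, 5 to 95%), as deposited on the left and with replicate block and centred libraries on the right. With the combination the points span -1.09 to -0.68 on the left, where the median of all regions is -0.69, and on the right region 1 lies at -0.42 and the median of all regions at -0.01.

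Over all libraries, 4 with EPZ-6438 against 4 without, the log2 difference was -0.75 ± 0.41 at region 1 (-1.55 to 0.04; adjusted p = 0.556, limma), -0.62 ± 0.42 at region 3, -0.50 ± 0.42 at region 9 and -0.33 ± 0.41 at region 11. All 4 libraries with EPZ-6438 lay below all 4 without it at regions 3 and 9, which 8.14% of tested regions also did. After centring that held for region 3 and no longer for region 9, against 4.12% of regions. The 4 libraries with P5091 gave -0.34, -0.31, -0.37 and -0.35 against the 4 without at regions 1, 3, 9 and 11, each with an adjusted p of 0.84 (limma), close to the median of -0.32 over all regions. The term for a joint effect of both compounds beyond their sum was -0.81 ± 0.81 at region 1 (adjusted p = 0.874, limma) and reached no call at the other 3. Without replicate 2 of the combination, regions 1, 3 and 9 passed for all with EPZ-6438, as did 47.0% of regions tested, region 3 passed for all with P5091, as did 29.9%, and region 3 passed for the joint effect, as did 24.2%, all by limma. These comparisons share libraries with those above, including replicate 1 of the combination.

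Regions that gained or lost a peak in both libraries of a treatment were few. Regions 6 and 12, of the 7 called in both DMSO libraries, had no peak in either EPZ-6438 library, and genome-wide 7.43% of 57349 such regions had none. Region 6 (chr19:51362094-51362468) had 23.4 and 15.1 normalized tags with DMSO, 17.6 in replicate 1 of P5091 and 12.6 in replicate 2 of the combination, and it was called with K295A at 16.6 and with WT at 14.5. Region 12 (chr19:51399872-51400243) had 13.2 and 9.29 with DMSO, 9.78 in replicate 1 of P5091 and 12.6 in replicate 2 of the combination. Both were thus also missing from 1 library of P5091 and 1 of the combination. Their mean DMSO tag counts stood at percentiles 42.8 and 8.45 of all regions called in both DMSO libraries. P5091 and the combination left 0 of the 7 without a peak in both libraries, against 5.51% and 13.9% genome-wide.

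Region 13 (chr19:51415565-51415962) was called in both combination libraries, at 14.4 and 18.9 normalized tags, and in neither DMSO library. It was also called in replicate 1 of EPZ-6438 at 27.4 and in replicate 2 of P5091 at 20.6, both higher than with the combination. It was 1 of 4 regions of the locus with a FOXA1 peak in a treated library and none in DMSO, while 1.84% of 45855 such regions genome-wide were called in both combination libraries. EPZ-6438 and P5091 each gave 0 of 4, against 12.7% and 6.24% genome-wide. Region 13 stood 13.8 to 18.9-fold above its surroundings, and its fold over input, 5.46 to 9.87, was nearer the caller's limit of 4. Other regions also came near that limit in some FOXA1 libraries. Fold over input ran from 4.89 to 82.88 at the common region 11, 4.63 to 30.04 at region 17 and 5.69 to 19.73 at region 6. Each treatment had its own input library, which both of its replicates shared, and whether the input set these calls was not tested. The numbers of regions involved are too small for these shares to set the locus apart from the rest of the genome.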

How the data were processed

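ChIP-seq peak lists of 12 LNCaP libraries were used. Per the submitters' processing notes, reads were processed with Bowtie2 and HOMER 4.2 on hg19. Per the file headers, HOMER findPeaks called peaks in each library separately, at a false discovery rate of 0.001 and at least 4-fold over the surrounding 10 kb (p of 0.0001). FOXA1 peaks also had to exceed by 4-fold an input shared by both replicates of a treatment, per the file headers, and the HA lists had no input. The deposited normalized tag count is a signal value, the tags in a peak per 1e7 tags of the library. The deposited whole-number tag count per peak is given in 3 lists. The deposited findPeaks score served only for a stricter threshold, the deposited fold over surroundings and over input is the caller's ratio for a peak, and the deposited focus ratio, a fraction, was not used for results.

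The kallikrein window, its regions and the tests were chosen with earlier results of these data known. Peaks of all 12 libraries were merged at 1 shared base, and a library's value in a region is that of its highest peak. limma 3.58.1 (trend on, R 4.3.3) was fitted on log2 (tag count + 1) at the 24261 regions with a peak in all 8 FOXA1 libraries, with 4 groups and Benjamini-Hochberg adjustment at 0.05. Of the 15 regions with FOXA1, 4 could enter this fit and 11 could not. Tags recovered from tag count and library total came out whole for 100% of peaks, within the rounding of the last printed decimal. In the 3 lists with deposited counts they matched those at 97.3%, 100% and 100% of peaks. They served for edgeR 4.0.16 (quasi-likelihood, libraries scaled by TMM) and for the exact binomial intervals of K295A over WT. Like centring, TMM takes out a shift shared by most regions of a library, which the limma fit above keeps. Merging, limma and edgeR steps were tested on simulated data.

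Named with values in every library, by a rule, are regions called in all 8 FOXA1 libraries, those called in both libraries of a treatment and in neither DMSO library or the reverse, and those in an untagged library. Regions 2, 14, 15 and 16 were added after their values were seen. No hg19 genome or annotation was used here, so the planned motif search of the regions and their distances to gene starts were not run; the RefSeq promoter windows (GRCh38.p14), matched by symbol for all 3 genes, were searched instead, a choice made after the files were seen. The alternatives tried were the replicate block, centring, both together, a pseudocount of 5, regions above the median tag count, and edgeR with and without the block. Regions called in more than 4 libraries, with each group among them, were also tried. So were merging over FOXA1 lists only, merging only at 50% or more of the shorter peak, and a score threshold. The last were the libraries of a contrast alone and leaving out each library.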

Additional observations from a re-analysis of the deposited data

How the results depend on the processing

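Of 362 differences of the named regions under an alternative, the joint effect not counted, 7 passed the threshold, all without replicate 2 of the combination (limma, adjusted p of 0.00109 to 0.0355), where that group rests on replicate 1, the library with few tags in peaks, assumed to vary like the others. These were region 1 (-1.50 for the combination, -0.96 for all with EPZ-6438), region 3 (-1.69, -1.001, and -0.69 for all with P5091) and region 9 (-1.29 and -0.71). The joint effect at region 3 also passed there (-1.51, adjusted p = 0.034, limma), with 5918 of 24502 regions called genome-wide; its calls were 0 in each other alternative run. In the other 342 differences the lowest adjusted p was 0.0775. Genome-wide calls were 0 in the planned fit. For EPZ-6438 they became 10 with its libraries and DMSO alone, 167 with block and centring and 393 with edgeR and the block. For the combination they became 1025 and 782 under the last pair, and 0 to 16162 leaving out a library. For all with EPZ-6438 they became 5 at 4 or more libraries, 38 centred, 36 with edgeR, 1834 with block and centring, 1917 with edgeR and the block, and 0 to 11528 leaving out a library (7 without replicate 1 of the combination, 11528 without replicate 2). For all with P5091 they were 0 to 7317 leaving out a library, 7317 without replicate 2 of the combination.

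The median of the 4 regions with the combination was -0.22 centred, also with the block. It was -0.20 with edgeR, which scales the libraries to each other, also with the block. Over all tested regions the median was -0.01 centred and -0.01 with edgeR. Leaving out a library, the median over the locus regions then tested was -1.29 to -0.42. Differences reversed 17 times: region 11 for all with EPZ-6438 (0.034 centred, also with the block; 0.009 with edgeR), region 3 for all with P5091 (0.004 centred, also with the block; 0.022 with edgeR, 0.025 with edgeR and the block; -0.69 to 0.076 leaving out a library), and, leaving out a library, regions 1 and 11 for EPZ-6438 (-0.78 to 0.082 and -0.41 to 0.26) and regions 1, 3 and 11 for P5091 (-0.37 to 0.50, -0.045 to 0.18 and -0.42 to 0.24). The cause was not tested. A findPeaks score of at least 20 for FOXA1 and 17 for K295A and WT left 11 of the 17 regions.

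The replicate block alone kept all calls at 0. Deviations of same-numbered libraries correlated at 0.148 to 0.488 over the 6 pairs of groups, but each group has only 2 numbers and the labels state no pairing. With block and centring, region 1 was at -0.39 ± 0.14 for all with EPZ-6438 (adjusted p = 0.079, limma). In the planned fit, intervals of 1 treatment against DMSO spanned about a 2-fold change to either side of the estimate. That fit has 2 libraries a group, 15 to 193.1 normalized tags a peak and a spread shared with replicate 1 of the combination. For EPZ-6438 at region 1 the SE was 0.57 there. It was 0.285 with the EPZ-6438 and DMSO libraries alone and 0.20 with block and centring.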
